A study of Mus musculus with 14 samples.

Results

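The genes described here are 9 components of transforming growth factor beta (TGF-beta) signalling: the ligand Tgfb1, the receptors Tgfbr1, Tgfbr2 and Acvrl1, the signal carriers Smad2, Smad3 and Smad4, and the inhibitors Smad7 and Ski. They were chosen by symbol, for their role in the pathway, from 47729 genes in the expression tables. All 9 were among the 14279 genes with enough reads for a test. Messages were read with SMART-Seq2, which copies whole transcripts from little input. The cells were microglia, the resident macrophages of neural tissue, taken from retinas of wild type C57BL/6 mice aged 12 weeks. The 14 libraries, of 1 retina each, came from 3 retinas with a microbead injection, labelled as glaucoma (microbead), 3 retinas opposite such an eye (contralateral), 4 retinas after sham injection (sham) and 4 retinas with no treatment (naive). Cells were gated as CD11b+, Ly6c- and Fcrls+, a gate meant to leave out infiltrating myeloid cells. The time after injection, the eye pressure and the sex of the mice were not given in the sources used here.

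TGF-beta is a secreted protein that is made in a latent form and must be freed before it can bind. The active ligand brings together a type II receptor (Tgfbr2) and a type I receptor, usually Tgfbr1 (ALK5) and in some cells Acvrl1 (ALK1), and the type I receptor then phosphorylates SMAD proteins, which enter the nucleus with Smad4. Microglia are known to need this signal to keep their resident identity. The comparison of microbead with sham, naive and contralateral retinas asks how the messages for ligand, receptors, SMADs and inhibitors differ in microglia of a glaucoma model.

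Total counts per library ran from 1.34 to 14 M reads. Microbead library 1 was the shallowest, with 10167 genes with reads, and contralateral library 2 had 10306, while the other libraries had from 13472 to 16531. In the microbead libraries short transcripts were high relative to long ones. The median log2 deviation of 2137 genes of at most 1000 bases minus that of 1896 genes over 4000 bases was 0.65, 0.43 and 1.08 in microbead, 0.32, 0.80 and -0.18 in contralateral, and between -0.18 and 0.13 in sham and naive. The file labels place the microbead and contralateral libraries in plate column 1, sham library 1 in column 2 and the other sham and all naive libraries in column 3. Microbead and contralateral thus share a column, while the column cannot be told apart from a difference of either from sham and naive. The 12 microglia markers all had reads in every group. Their summed level in CPM (read counts scaled to library size with TMM factors) was 17515, 22012 and 34635 in microbead, 27784 to 38239 in contralateral, 33497 to 36774 in sham and 23058 to 34607 in naive, so that 2 microbead libraries lay below all others. In such bulk libraries, fewer cells of a type and less RNA per cell cannot be told apart. The p-values below measure only the spread between these libraries.

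Per transcript length, the receptor genes led the group. The authors' FPKM, which divides by length and depth, had a median over the 14 libraries of 139 for Tgfbr1 and 114 for Tgfbr2. Ski followed with 50.7, Acvrl1 with 29.0, Smad2 with 22.5, Smad3 with 22.0, Tgfb1 with 13.1, Smad7 with 9.61 and Smad4 with 8.86. The range of FPKM of each gene over the libraries overlapped that of the next gene in this order. Tgfbr2 had the smallest relative spread of the 9 genes, with a coefficient of variation of its CPM of 0.231, and Tgfb1 the largest, with 1.09.

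**Figure D1:**
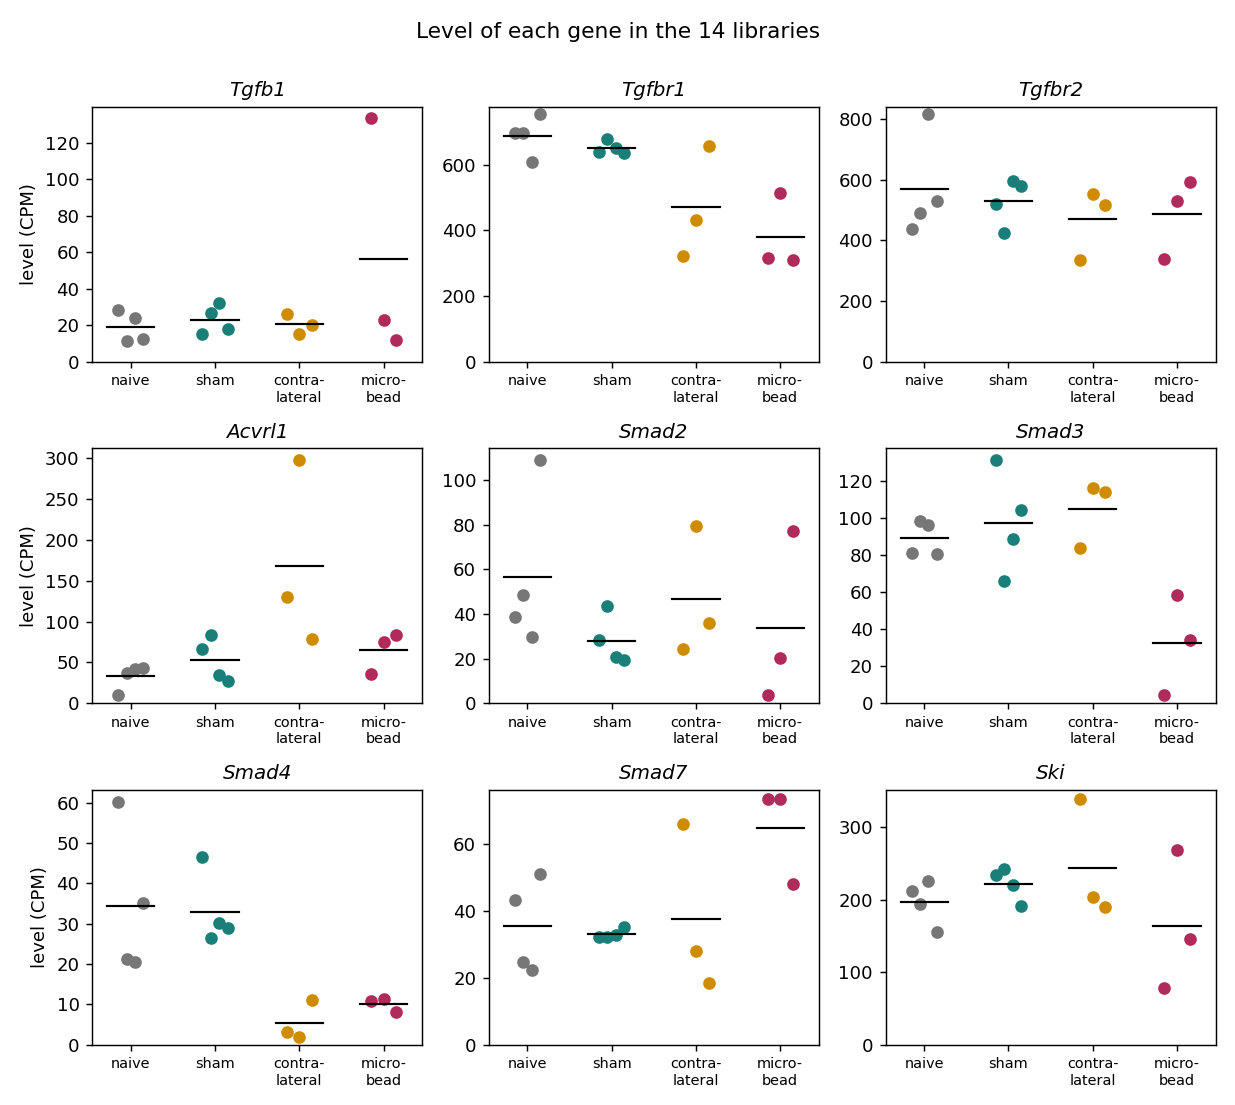
Level of each of the 9 genes in CPM (vertical axis, from 0) in the naive, sham, contralateral and microbead libraries. Each point is 1 library and the line is the group mean. Smad4 lay between 2.05 and 11.3 CPM in the contralateral and microbead libraries and between 20.6 and 60.2 CPM in the others, and the mean of Tgfb1 in microbead was set by 1 library at 134 CPM.

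Under edgeR's quasi-likelihood test with Benjamini-Hochberg adjustment, 0 of the 9 genes passed an adjusted p of 0.05 in any comparison. Few genes did so overall: 0.014% of all genes tested for microbead against sham, 0.21% against naive, 0.028% against contralateral and 1.28% against the mean of sham and naive. It was 0% for contralateral against sham, for contralateral against naive and for sham against naive, and 0.224% for the joint difference among the 4 groups. At an unadjusted p under 0.05, 2 of the 9 genes differed between microbead and sham, where 9.75% of all genes did. Against naive there were 3 (background 10.5%), against contralateral 2 (11.5%), and against the mean of sham and naive 4 (12%). The joint difference among the 4 groups had an unadjusted p under 0.05 for Tgfbr1, Acvrl1 and Smad4 (background 8.17%), and sham against naive for 0 of 9 (background 2.66%). DESeq2's Wald test called more genes overall. It called 0 of 9 against sham (3.24% of all genes), naive (4.03%) and contralateral (4.65%) and 2 of 9 against the mean of sham and naive, where it called 5.64% of all genes. Limma voom called 0 of 9 in each of these 4 comparisons, where it called 0.637%, 1.36%, 0.014% and 1.66% of all genes. In simulated data for microbead against naive (3 runs over 13626 to 13680 genes), the test recovered 18% of genes raised 4-fold and 12.7% of genes lowered 4-fold. An uncalled gene is thus not shown to be equal between groups. The changed genes averaged at least 10 CPM, and the simulation kept the library sizes but held no length trend. These rates are therefore not those of the members as measured.

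The level of Tgfb1, the gene of the ligand that microglia themselves make, was similar in most libraries. It was 134, 22.8 and 12.1 CPM in microbead, 26.05, 15.3 and 20.4 in contralateral, 15.1, 26.9, 32.3 and 17.8 in sham, and 28.6, 11.6, 24.0 and 12.3 in naive. Microbead library 1 stood far above the rest, on 186 reads in the shallowest library, while the other microbead libraries lay within the range of naive and sham. The fitted difference of microbead from the mean of sham and naive was 1.41 ± 0.67 on the log2 scale (SE, 3 against 8 libraries), with an unadjusted p of 0.0497 and an adjusted p of 0.417 in edgeR's test. Without microbead library 1 it was -0.29, of the other sign. Against contralateral it was 1.44 ± 0.87, and without that library -0.20.

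Tgfbr1 encodes the type I receptor kinase that passes the TGF-beta signal to Smad2 and Smad3. Its level was 316, 514 and 311 CPM in microbead, 322, 432 and 656 in contralateral, 640, 678, 650 and 635 in sham, and 697, 695, 607 and 754 in naive. Every microbead library lay below every sham and naive library, and the contralateral libraries spread from the microbead level to the sham level. The mean was 380 ± 116 CPM (SD, n = 3) in microbead against 651 ± 19.4 (n = 4) in sham and 688 ± 60.5 (n = 4) in naive. On the log2 scale microbead differed from sham by -0.77 ± 0.27 (SE), with an unadjusted p of 0.00955 and an adjusted p of 0.345. Against naive the difference was -0.85 ± 0.27, with an adjusted p of 0.224, and against contralateral it was -0.30 ± 0.28, with an adjusted p of 0.718. Against the mean of sham and naive it was -0.81 ± 0.24, that is 1.76-fold lower, with an adjusted p of 0.140. This last difference was past the threshold with DESeq2's Wald test (adjusted p = 0.0401) and with the contralateral libraries left out of the fit (0.0436), which called 2.28% of all genes. Over 20 alternatives its adjusted p ran from 0.0401 to 0.426 and its log2 difference from -1.12 to -0.70, always lower in microbead. The summed microglia markers were also lowest in 2 microbead libraries, and their part in the difference of Tgfbr1 or of Smad3 was not tested.

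Tgfbr2, the type II receptor that binds the ligand first, showed no such separation. Its level was 340, 529 and 592 CPM in microbead, 335, 554 and 516 in contralateral, 520, 424, 594 and 577 in sham, and 436, 489, 814 and 530 in naive. The 4 groups overlapped throughout. The difference of microbead was -0.12 ± 0.28 from sham, -0.22 ± 0.28 from naive and 0.06 ± 0.30 from contralateral on the log2 scale, with adjusted p-values of 0.959, 0.882 and 0.975. As a description with no test, the ratio of Tgfbr1 to Tgfbr2 in FPKM ran from 0.569 to 0.827 in microbead, from 1.09 to 1.45 in contralateral, from 0.949 to 1.48 in sham and from 0.683 to 1.46 in naive. The microbead ratios were below all sham and contralateral ratios and overlapped those of naive.

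Acvrl1 encodes ALK1, a type I receptor best known from endothelial cells, where it responds to bone morphogenetic proteins and, with its co-receptor endoglin, to TGF-beta. It was high in the contralateral retinas, at 130, 298 and 78.5 CPM. It was 35.9, 74.6 and 83.6 in microbead, 66.2, 83.2, 35.3 and 27.2 in sham, and 10.2, 37.0, 41.5 and 42.9 in naive. Every contralateral library lay above every naive library, while 1 contralateral library overlapped sham and microbead. Contralateral differed from naive by 2.36 ± 0.59 on the log2 scale (5.12-fold higher), with an unadjusted p of 0.000819 and an adjusted p of 0.949 in edgeR's test. DESeq2's Wald test gave an adjusted p of 0.0181 for it, the lowest of 16 alternatives, whose highest was 1, and called 0.497% of all genes. Without contralateral library 2 the difference was 1.62. The difference from sham was 1.67 ± 0.58 (adjusted p = 0.963), and 0.94 without that library. Microbead differed from contralateral by -1.38 ± 0.63, with an unadjusted p of 0.0429 and an adjusted p of 0.423, and by -0.67 without contralateral library 2.

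Some markers of other cells were high in contralateral libraries. The summed level of 15 endothelial and pericyte markers was 43.4, 42.4 and 21.4 CPM in contralateral, 7.18, 32.7 and 3.51 in microbead, from 3.44 to 7.37 in sham and from 6.45 to 56.3 in naive, which held the highest sum. Of these markers 7 of 15 had reads in each group, and Cldn5, Tek, Tie1 and Rgs5 were at 0 reads in all libraries. Kdr, the endothelial VEGF receptor, averaged 17.1 CPM in contralateral, 3.68 in sham, 5.13 in naive and 8.94 in microbead. Pecam1, an endothelial adhesion molecule, averaged 13.5 CPM in contralateral, 1.14 in sham, 16.7 in naive and 1.90 in microbead. The sum of 11 markers of border-associated macrophages was 789 to 1052 CPM in contralateral, 222 to 345 in microbead, 397 to 612 in sham and 380 to 543 in naive. Most of it was the scavenger receptor Stab1, with a mean of 712 CPM in contralateral, 353 in sham and 369 in naive. Other border markers went both ways. Higher in contralateral than in sham were Cd163, with means of 15.03 and 4.67 CPM, and Pf4, with 32.5 and 19.5. So were F13a1, with 33.4 and 23.9, Folr2, with 12.3 and 4.56, and Clec10a, with 11.3 and 8.27. Lower in contralateral were Mrc1, with 25.5 and 42.7, Lyve1, with 8.02 and 16.5, Ms4a7, with 29.2 and 32.8, and Cbr2, with 0 and 2.22. The sum of 12 rod photoreceptor markers was 2211 to 3652 CPM in contralateral, 848 to 1600.5 in sham, 254 to 3302 in naive and 493 to 4085 in microbead. The part of these cells in the level of Acvrl1 was not tested. Acvrl1 overlaps an antisense gene, Gm16031, which had at most 1 read in any library. The sources used here do not give how the counting treated strand.

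Smad2 and Smad3 encode the SMADs that Tgfbr1 phosphorylates, and only Smad3 separated the groups. Smad3 was 4.31, 58.6 and 34.4 CPM in microbead, 83.9, 116 and 114 in contralateral, 131, 65.9, 88.5 and 104 in sham, and 81.1, 98.5, 96.5 and 80.6 in naive. Every microbead library lay below all 11 libraries of the other groups. The lowest value rests on 6 reads in microbead library 1. Microbead differed by -1.56 ± 0.57 from sham (adjusted p = 0.381), by -1.44 ± 0.57 from naive (0.397) and by -1.67 ± 0.60 from contralateral (0.313) on the log2 scale, with unadjusted p-values of 0.0132, 0.0208 and 0.0120. Against the mean of sham and naive it was -1.50 ± 0.53, a 2.83-fold lower level, with an adjusted p of 0.245. DESeq2's Wald test gave 0.0316 for that comparison, and the adjusted p over its 20 alternatives ran from 0.0316 to 0.435. Without microbead library 1 that difference was -1.03, and the remaining microbead libraries still lay below every other library.

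Smad2 varied widely within each group. It was 3.59, 20.4 and 77.1 CPM in microbead, 24.1, 79.6 and 36.0 in contralateral, 28.4, 43.8, 20.6 and 19.6 in sham, and 38.5, 48.6, 29.5 and 109 in naive. The microbead libraries held both the lowest value, on 5 reads, and a value above all but 1 of the naive libraries. The difference of microbead was 0.28 ± 0.78 from sham, -0.73 ± 0.80 from naive and -0.45 ± 0.84 from contralateral, with adjusted p-values from 0.845 to 0.963.

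The sequence just upstream is given for Tgfbr1 and Smad3, members that were low in microbead libraries. Smad4, also low there, was not included. The stretches are the 250 bases before the start of Tgfbr1 (chr4:47352972-47353221, plus strand) and of Smad3 (chr9:63757995-63758244, minus strand). They are from RefSeq, build GRCm38.p6, each 5′ to 3′ on the strand of its gene. Capitals mark GGGCGG, the GC box that SP and KLF factors bind.
Tgfbr1: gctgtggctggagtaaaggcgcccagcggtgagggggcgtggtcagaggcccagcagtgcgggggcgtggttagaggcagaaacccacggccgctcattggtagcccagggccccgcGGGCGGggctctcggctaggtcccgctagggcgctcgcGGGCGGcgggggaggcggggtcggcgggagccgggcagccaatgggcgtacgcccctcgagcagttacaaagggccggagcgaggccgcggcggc
Smad3: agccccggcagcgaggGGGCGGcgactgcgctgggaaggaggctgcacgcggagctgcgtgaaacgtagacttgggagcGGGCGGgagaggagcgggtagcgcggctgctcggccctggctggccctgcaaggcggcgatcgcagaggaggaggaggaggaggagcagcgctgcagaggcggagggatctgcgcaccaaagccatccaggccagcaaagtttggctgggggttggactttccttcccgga
Both stretches hold this motif 2 times. They are rich in G and C, at 74.8% and 69.2% against a median of 52.4% over 32851 promoters. Of these promoters 32.7% hold GGGCGG on either strand, so the motif is common.

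Upstream stretches of 5 members were searched: Tgfb1, Tgfbr1, Tgfbr2, Smad3 and Ski. Member entries on chromosome 18, where Smad2, Smad4 and Smad7 lie, were left out of the search, so nothing is said about these 3 genes. GGGCGG occurred 5 times before Tgfb1, 5 times before Ski and 0 times before Tgfbr2. A second start of Tgfbr1 held 0. The SMAD-binding CAGA box, searched as CAGACA on both strands, occurred 1 time, before the second start of Tgfbr1 (17.1% of all promoters hold it). The palindromic SMAD site GTCTAGAC (0.167% of all promoters) and the PU.1 core GAGGAAGT (2.44%) occurred in 0 of these 6 stretches.

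Smad4, the common partner that SMADs need to act together in the nucleus, was low in both the microbead and the contralateral retinas. Its level was 10.8, 11.3 and 8.17 CPM in microbead, 3.23, 2.05 and 11.1 in contralateral, 46.4, 26.3, 30.05 and 28.9 in sham, and 60.2, 21.4, 20.6 and 35.0 in naive. All 6 microbead and contralateral libraries lay below all 8 sham and naive libraries. These low values rest on 15 to 101 reads in microbead and on 17, 13 and 173 reads in contralateral, against 259 to 444 reads in sham and naive. Microbead differed by -1.71 ± 0.84 from sham and by -1.77 ± 0.84 from naive on the log2 scale, with adjusted p-values of 0.514 and 0.471. Contralateral differed by -2.58 ± 0.87 from sham and by -2.64 ± 0.87 from naive, that is 5.98-fold and 6.23-fold lower. The unadjusted p-values of these contralateral differences were 0.00798 and 0.00702, and the adjusted ones 0.963 and 0.949. DESeq2's Wald test gave adjusted p-values of 0.0302 and 0.0218 for them, the lowest of 16 alternatives each, with 1 as the highest, and called 0.504% and 0.497% of all genes. Microbead and contralateral differed from each other by 0.87 ± 0.86, with an adjusted p of 0.740.

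A comparison of microbead and contralateral together with sham and naive together was added after the data had been seen. The labels do not say whether a microbead and a contralateral retina come from 1 mouse, and the test treats the 6 libraries as independent. In it Smad4 differed by -2.18 ± 0.60 on the log2 scale (4.52-fold lower), with an unadjusted p of 0.00197 and an adjusted p of 0.289 in edgeR's test. DESeq2's Wald test gave an adjusted p of 0.0020, where it called 1.67% of all genes, and over 22 alternatives it ran from 0.0020 to 0.659. Tgfbr1 differed by -0.66 ± 0.19 (adjusted p = 0.289) and Acvrl1 by 1.33 ± 0.41 (0.319). Without contralateral library 3, Tgfbr1 passed the threshold in this comparison, with an adjusted p of 0.0441, where 0.585% of all genes did. Smad4 was the only one of the 9 genes whose 6 and 8 libraries did not overlap. That held for 21 genes, or 0.147% of all genes tested, and all 21 were lower in the microbead and contralateral libraries. These 6 libraries are those in plate column 1 and include the 2 libraries under 12000 genes with reads. Some of the 21 genes were at 0 reads there, such as Pyurf in all 6 and Rbm45 in 5, while Smad4 had reads in all 6. The part of column and depth in this count was not tested. With the adjusted p, 0 of 9 were called where 0% of all genes were, and 3 of 9 had an unadjusted p under 0.05, where 9.35% of all genes did. Smad4 shares its locus with a processed pseudogene, AC132418.2, for which no separate count was used here.

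Smad7, the inhibitory SMAD that TGF-beta itself induces and that blocks Tgfbr1, was the member with a high level in microbead. It was 73.2, 73.3 and 47.9 CPM in microbead, 66.0, 28.1 and 18.4 in contralateral, 32.0, 32.0, 32.6 and 35.3 in sham, and 43.3, 24.6, 22.4 and 51.0 in naive. All 3 microbead values were above the 4 sham values, while 1 naive and 1 contralateral library reached the microbead range. Microbead differed by 0.97 ± 0.57 from sham, 0.87 ± 0.57 from naive and 0.79 ± 0.62 from contralateral on the log2 scale, with adjusted p-values of 0.598, 0.625 and 0.652. As a description with no test, the FPKM of Smad7 over that of Smad3 was 0.833 to 19.2 in microbead, 0.151 to 0.565 in contralateral, 0.262 to 0.499 in sham and 0.258 to 0.787 in naive. All 3 microbead ratios were above the 11 others, and the highest rests on the library with 6 reads of Smad3.

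Ski, a repressor that binds SMADs in the nucleus, showed no separation. It was 78.995, 269 and 145 CPM in microbead, 339, 204 and 190 in contralateral, 235, 243, 220 and 192 in sham, and 212, 194, 226 and 156 in naive. The microbead libraries held values both below and above all sham and naive libraries. The difference of microbead was -0.43 ± 0.36 from sham, -0.26 ± 0.36 from naive and -0.57 ± 0.38 from contralateral, with adjusted p-values of 0.772, 0.896 and 0.581. Against naive the sign changed without microbead library 1, to 0.05.

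**Figure D2:**
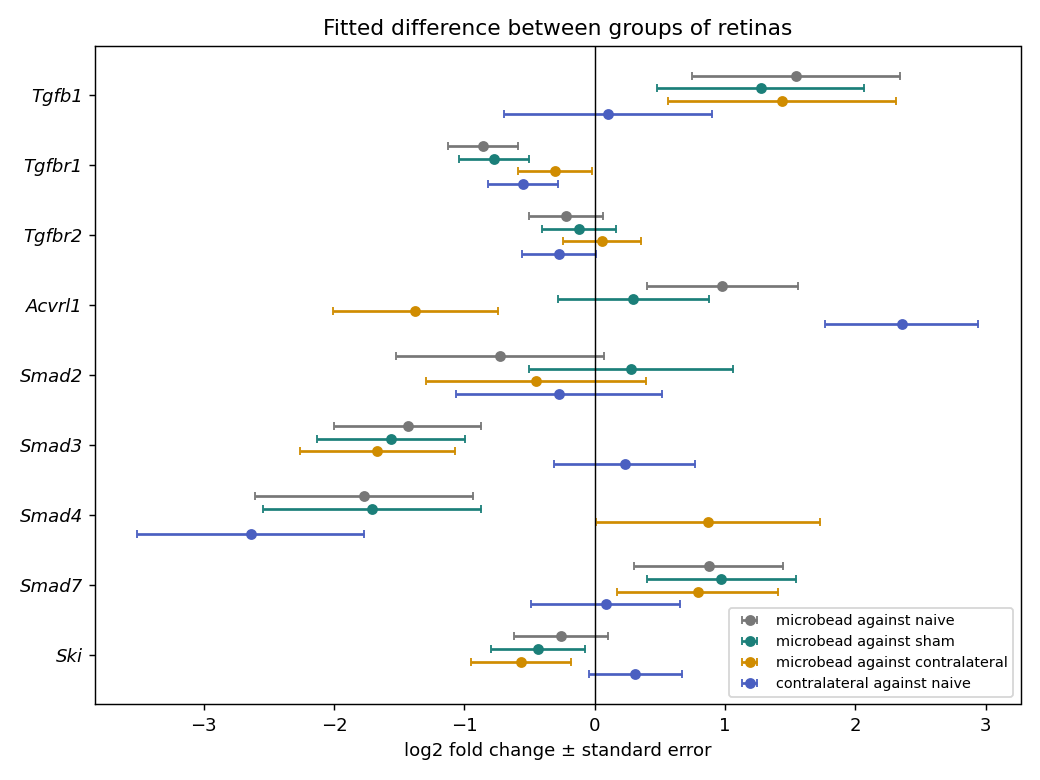
Fitted log2 fold change with its standard error (horizontal axis) of the 9 genes for microbead against naive, sham and contralateral and for contralateral against naive. Smad3 lay between -1.67 and -1.44 in the 3 microbead comparisons and near 0 for contralateral against naive, while Smad4 was at -2.64 for contralateral against naive.

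Counted by libraries that do not overlap, Tgfbr1, Smad3 and Smad4 were lower and Smad7 higher in microbead than in sham, that is 4 of 9 genes where 12.2% of all genes did not overlap. Against naive it was Tgfbr1, Smad3 and Smad4, all lower, where 11.8% of all genes did not overlap. These 3 were also below all 8 sham and naive libraries together, where 6.05% of all genes were separated in either direction. Against contralateral it was Smad3, with a background of 10.8%. Contralateral did not overlap sham for Smad4 (background 5.92%) and did not overlap naive for Smad4 and Acvrl1 (background 6.21%). At an unadjusted p under 0.05, contralateral differed from sham and from naive for Acvrl1 and Smad4, 2 of 9 in each, where 4.86% and 5.18% of all genes did. The comparisons with microbead share its 3 libraries, so their counts are not independent. The median log2 difference of the 9 genes was -0.12 from sham, -0.26 from naive and -0.30 from contralateral, beside -0.12, -0.14 and -0.08 over all genes.

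Removing the length trend of each library, an alternative known from earlier work on these data, moved some members more than others. Acvrl1 came nearer to 0, at 1.25 for contralateral against sham, 1.91 for contralateral against naive and -1.09 for microbead against contralateral. Tgfb1 was 1.11 for microbead against the mean of sham and naive, with an unadjusted p of 0.117 in edgeR's test. Tgfbr1, Smad3, Smad4 and Smad7 changed little. For microbead against sham and naive in turn, Tgfbr1 was then -0.85 and -0.89, Smad3 -1.58 and -1.43, Smad4 -1.82 and -1.85 and Smad7 0.86 and 0.81. Tgfbr1, Tgfbr2, Smad3, Smad7 and Ski have long messages. Their median length over the libraries was 5144, 4751, 4634, 4278 and 4639 bases in the authors' tables, and that of Smad4 was 3177. The length a library reports is a mean over isoforms weighted by their abundance. This length was compared between microbead and the 8 sham and naive libraries by an exact two-sided permutation test of the mean. The lowest unadjusted p over the 9 genes was 0.0848, for Tgfb1 and Tgfbr2, and the lowest adjusted p was 0.382. The smallest p the design allows is 0.0121. A gene alone at that p could not pass the threshold after adjustment over the 9 genes. The test therefore does not show that the lengths are equal. Tgfbr1 was reported at 3483 to 4233 bases in the 3 contralateral libraries and at 4617 to 5495 in sham and naive, a gap seen in the data and not tested.

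Across the 14 libraries, pairs of members were compared by the correlation of their log2 CPM, as a description, since libraries share depth, group and quality. Tgfbr1 and Smad4 went together (r = 0.75, rho = 0.76), and r was 0.85 without the 2 libraries farthest from the median of Tgfbr1 and 0.56 within groups, after each group's mean was subtracted. Acvrl1 and Smad4 went in opposite directions (r = -0.81, rho = -0.68), with -0.60 without the 2 libraries farthest from the median of Acvrl1 and -0.65 within groups. Smad3 and Smad7 also ran opposite (r = -0.60, rho = -0.75), with -0.65 without the 2 farthest but -0.23 within groups. The value of -0.76 between Tgfb1 and Smad3 rested on such libraries, since r was 0.11 without them, and it was -0.82 within groups. Tgfb1 and Smad2 had the strongest value of any pair (r = -0.86, rho = -0.58), with -0.66 without the 2 farthest and -0.85 within groups. Smad3 and Ski had the highest positive value (r = 0.77, rho = 0.16), but r was -0.32 without the 2 libraries farthest from the median of Smad3. Tgfbr1 and Tgfbr2, the 2 subunits of the receptor, had r = 0.38, rho = -0.10 and r = 0.24 within groups.

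**Figure D3:**
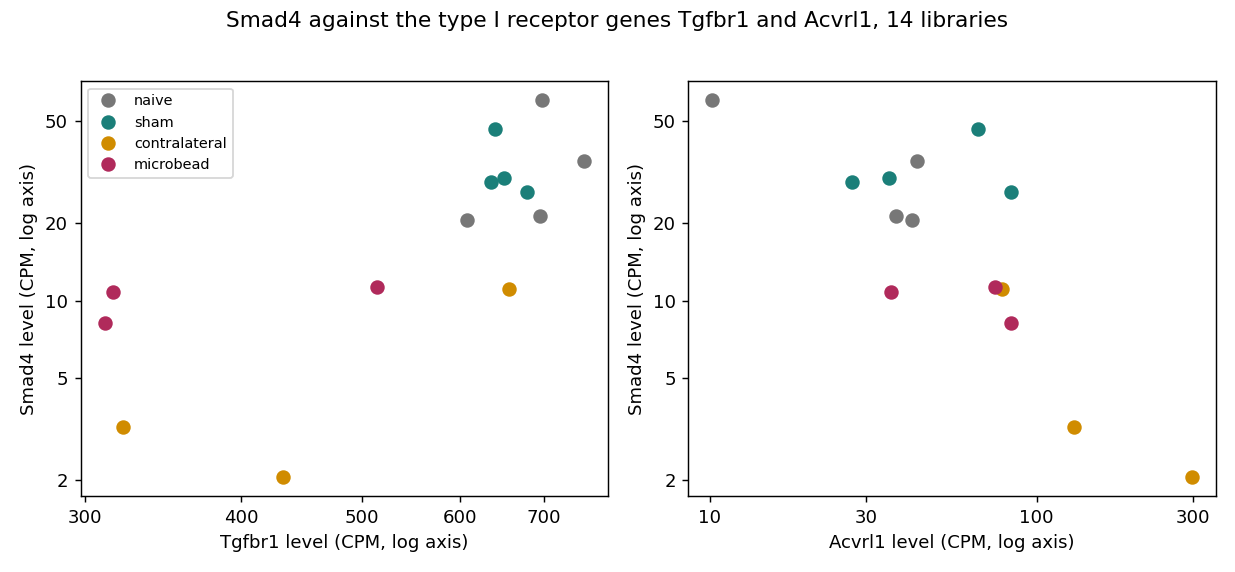
Level of Smad4 against that of Tgfbr1 (left) and Acvrl1 (right) in CPM on log axes, 1 point per library, coloured by group. The sham and naive libraries lie at 607 to 754 CPM of Tgfbr1 and above 20 CPM of Smad4, and the contralateral libraries with the lowest Smad4, at 2.05 and 3.23 CPM, have the highest Acvrl1, at 298 and 130 CPM.

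The genes most like a member were sought among 6505 genes with a mean of at least 20 CPM, by Pearson's r of log2 CPM over the 14 libraries. For Tgfb1 they were U2af2 (r = 0.94), Nemf (0.89) and Fam46a (0.88). For Tgfbr1 they were Cbx3 (0.92), Stard7 (0.90) and Gm29488 (0.89), and r for these was 0.91, 0.81 and 0.95 without the 2 lowest microbead libraries. For Tgfbr2 they were Atp6v1b2 (0.87), Rbms1 (0.80) and Clp1 (0.79). Without the 2 libraries farthest from the median of Tgfb1, r with Nemf was 0.48. The libraries share their depth and their length trend, and the highest of 6505 values is chosen from the data.

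The wider pathway was read from 8 lists by role, of which 94 other genes could be tested. Against the mean of sham and naive, 40 were higher and 54 lower in microbead, with 1 called in each direction where 1.28% of all genes were called, and 21 of 94 at an unadjusted p under 0.05, where 12% of all genes were. Against naive 1 of 94 was called (0.21% of all genes), and 20 had an unadjusted p under 0.05 (10.5% of all genes). Against sham 0 were called (0.014%) and 16 had such a p (9.75%), and against contralateral 0 were called (0.028%) and 18 had it (11.5%). The lists were chosen with earlier results of these data known, and these counts are not independent evidence.

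Of 14 TGF-beta and SMAD target genes tested, 9 were higher and 5 lower in microbead than the mean of sham and naive. Their median log2 difference was 1.07 beside -0.12 over all genes, and 0.88 with the length trend removed. Only Id2 among them passed the threshold there. Id2, an inhibitor of basic helix-loop-helix factors that BMP and TGF-beta signals regulate, was 402, 186 and 217 CPM in microbead, 70.0, 45.1 and 59.1 in contralateral, 130, 146, 55.8 and 108 in sham, and 29.2, 49.8, 88.5 and 37.6 in naive. Every microbead library lay above every other library. The difference was 2.38 ± 0.45 from naive (adjusted p = 0.0343) and 1.83 ± 0.36 from the mean of sham and naive (0.0173), and with the length trend removed it was 1.98 and 1.44. Against sham it was 1.28 ± 0.44 (0.327). Fibronectin, Fn1, a matrix target, was 0, 111 and 38.3 CPM in microbead, 0, 0 and 0.448 in contralateral, 0, 14.3, 8.498 and 0 in sham, and 0 in all naive libraries. Fn1 is also a monocyte marker. The sum of 12 infiltrating monocyte markers was 77.6, 241 and 143 CPM in microbead, 14.98 to 75.7 in contralateral, 23.4 to 109 in sham and 14.6 to 30.6 in naive, and 8, 8, 8 and 5 of the 12 had reads in these groups. Ly6c2, Chil3 and F10 were at 0 reads in all libraries. Other markers on that list were highest in microbead: Ccr2 averaged 15.7 CPM there, 6.92 in contralateral, 10.1 in sham and 2.70 in naive, and Cd44 41.9, 11.5, 11.6 and 2.34. In the same order, S100a4 averaged 17.96, 0.789, 5.37 and 0 CPM and Ms4a4c 20.8, 4.14, 4.65 and 7.36. Their part in the levels of Id2 and Fn1 was not tested.

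Of 29 genes on the list of microglial genes taken to depend on TGF-beta, 21 were lower and 8 higher in microbead than the mean of sham and naive. Their median log2 difference was -0.21 beside -0.12 over all genes. The dependence of each gene on TGF-beta was assumed for the list and was not tested here. Cx3cr1, the fractalkine receptor, passed the threshold there, at -0.88 ± 0.20 (adjusted p = 0.0345). It was 2264, 2106 and 3626 CPM in microbead, 5363, 5462 and 6072 in contralateral, 5125, 5822, 4819.97 and 5658 in sham, and 3456, 4997, 5299.96 and 4268 in naive. The highest microbead library overlapped the lowest naive library. Csf1r, the receptor that microglia need to survive, was 3688 ± 649 CPM in microbead, 6495 ± 661 in sham and 5789 ± 961 in naive, a difference of -0.73 ± 0.18 with an adjusted p of 0.0508. Both genes are also on the microglia marker list, whose sum was lowest in 2 microbead libraries, and the part of that sum in these differences was not tested. In contralateral retinas 20 of the 29 were higher and 9 lower than in naive, with a median of 0.25, which was 0.00 with the length trend removed.

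**Figure D4:**
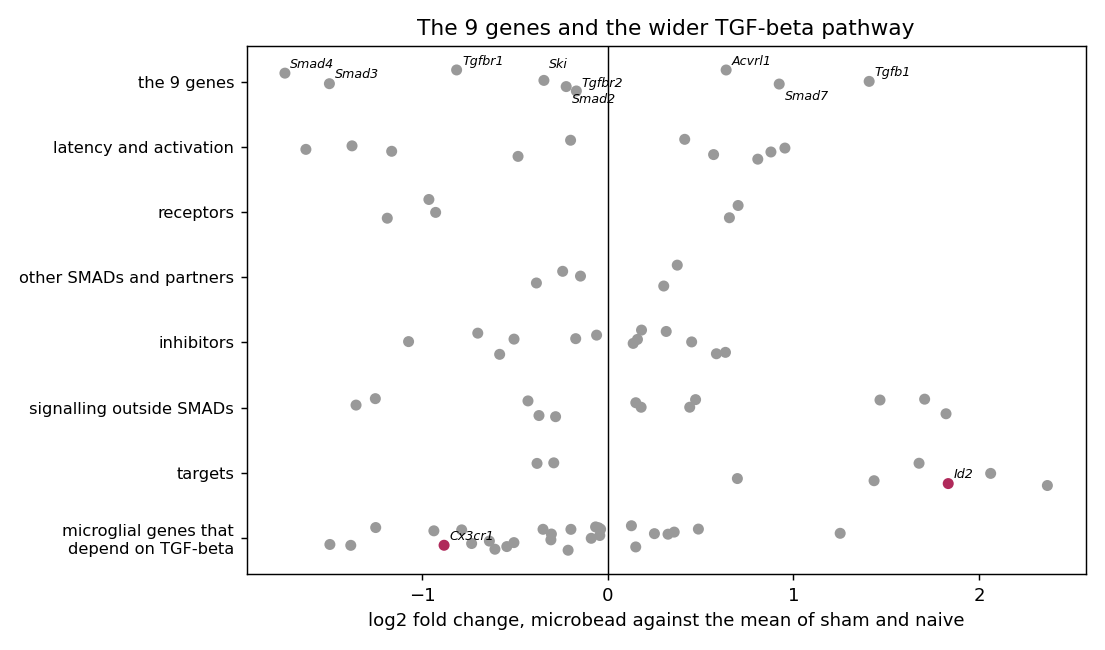
Log2 fold change of microbead against the mean of sham and naive (horizontal axis) for the 9 genes and for 81 other pathway genes that averaged at least 10 CPM and had reads in each of these groups, by role. Each point is 1 gene, and genes past an adjusted p of 0.05 are red. Id2 at 1.83 and Cx3cr1 at -0.88 passed it, and the 9 genes ran from -1.74 for Smad4 to 1.41 for Tgfb1.

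Other roles had 0 genes past the threshold in any microbead comparison, and the genes below are those with the smallest p. Among 12 genes of signalling outside SMADs, the kinase gene Map3k7 (TAK1) and its partner Tab2, which TGF-beta and inflammatory receptors both use, were high in microbead. Map3k7 was 153, 61.9 and 46.1 CPM in microbead, above all other libraries, which ran from 4.54 to 39.1. Its difference from sham was 2.02 ± 0.71 (adjusted p = 0.356). Tab2 was 312, 199 and 72.3 CPM in microbead against means of 69.9 ± 22.8 in sham and 70.4 ± 24.0 in naive, a difference of 1.47 ± 0.50 from sham (0.327). Rock1 differed from contralateral by 3.20 ± 0.86 (0.142), with 294 CPM in microbead library 1 and 29.2 and 25.5 in the others. Akt1, a survival kinase, differed from contralateral by -2.05 ± 0.64 (0.229).

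In the genes that free latent TGF-beta, 0 of 11 passed the threshold. Itgav, an integrin alpha chain, was 34.5, 22.6 and 27.2 CPM in microbead and 70.9 ± 28.04 in sham, a difference of -1.34 ± 0.52 (adjusted p = 0.425), and the lowest sham library overlapped. Itgb5, a beta chain that pairs with it, was 832 ± 357 CPM in microbead and 407 ± 51.1 in sham, a difference of 1.03 ± 0.44 (0.458). Other beta chains that pair with Itgav, named after their values were seen, were Itgb1, at -1.12 ± 0.69 from sham (0.621), and Itgb3, at 0.43 ± 0.49 (0.873). Nrros, which holds latent TGF-beta on microglia, was 204 ± 67.0 CPM in microbead and 265 ± 35.5 in sham. Among the receptors, Eng (endoglin), the co-receptor of Acvrl1, was 32.3, 92.4 and 141 CPM in microbead, 183, 322 and 211 in contralateral, 74.9, 211, 202 and 205 in sham, and 137, 190, 154 and 217 in naive. Each microbead library lay below every contralateral library, with a difference of -1.42 ± 0.48 (0.272). Of the ligands, Bmp2 was at 0 reads in all microbead libraries, which allows up to 0.138 CPM over the group, and at 4.64 ± 8.23 CPM in sham, where 2 of 4 libraries had none. The inhibitor and SMAD partner genes with the smallest p were Usp4 and Tgif2 against sham, at -0.86 ± 0.50 and -4.01 ± 2.52, and Ep300 against contralateral, at -0.96 ± 0.42, with adjusted p-values of 0.598, 0.631 and 0.395.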

How the data were processed

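Sorted retinal microglia were profiled in 14 libraries, grouped by their labels. Each library has a table of expected counts (estimated reads per gene), which are not scaled to depth per the file headers, with FPKM and TPM that the authors scaled to effective length and depth. TPM was not analysed. The submitters' processing notes list the build mm10 and the tools DESeq2 1.30.1, Salmon 1.4.0 and R 4.0.3 without roles. Which of them made the tables was not given in the sources used here. Coordinates are from GENCODE M21 (GRCm38).

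Expected counts were rounded. In R 4.3.3, edgeR 4.0.16 kept 14279 genes (filterByExpr, minimum count 10), applied TMM factors and fitted 1 robust quasi-likelihood model to the 4 groups with no covariate (glmQLFit, glmQLFTest, two-sided, 10 residual degrees of freedom). Benjamini-Hochberg adjustment ran over the 14279 genes, and calls needed an adjusted p under 0.05. The standard error is the absolute log2 difference divided by the root of F. Levels are CPM. A length trend was removed, in an alternative, by a lowess curve (span 0.5) per library. The test was checked on simulated data. Library sizes of 1.34 to 14 M reads limit low genes most, since 1 read of the shallowest library is a large step.

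Besides the 9 members, named genes are those of the role lists past the threshold or with the 2 smallest p-values in a comparison, and the 3 genes most correlated with Tgfb1, Tgfbr1 and Tgfbr2. Of these the text gives the ones that bear on a role. The members and lists were chosen with earlier results of these data known. Alternatives were other size factors and filters, DESeq2 1.42.0, limma 3.58.1 voom, a replicate block, fits of the compared groups alone, and leaving out libraries. The labels do not say whether same-numbered microbead and contralateral retinas come from 1 mouse. For that reason the numbers were not used as pairs. Deviations of same-numbered libraries of any 2 groups correlated from -0.05 to 0.14, and those of other pairs from -0.10 to 0.10. Microbead and contralateral libraries 1, 2 and 3 correlated at 0.02, -0.05 and 0.12, the last above all pairs of unlike number. So few values cannot decide whether such retinas share a mouse.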

Additional observations from a re-analysis of the deposited data

How the results depend on the processing

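The main limits are depth, with 15 reads or fewer for Smad2, Smad3 and Smad4 in microbead library 1, and the spread of 3 libraries per injured or opposite eye. Of 423 recomputed log2 differences of the 9 genes between microbead and sham, naive or contralateral, 402 kept their sign and side of the threshold and 21 changed sign, all of them uncalled. Tgfbr1, Smad3 and Smad4 stayed lower in microbead than in sham and naive under every alternative run. The changed signs concern Tgfb1, Tgfbr2, Smad2, Ski and Tgfbr1. With limma voom, microbead differed from sham by -0.14 for Tgfb1 and 0.0127 for Tgfbr2 and from contralateral by -0.12 for Tgfb1. Without the 2 libraries under 12000 genes, Tgfb1 was -0.42 from sham, -0.16 from naive and -0.41 from contralateral, Tgfbr2 0.0587 from sham, Ski 0.0463 from naive and Smad2 0.68 from contralateral. Leaving out each library in turn, the ranges that crossed 0 were -0.42 to 1.74 (Tgfb1), -0.30 to 0.0588 (Tgfbr2) and -1.20 to 0.765 (Smad2) from sham, -0.16 to 2.005 (Tgfb1), -0.40 to 0.00634 (Tgfbr2) and -0.84 to 0.0468 (Ski) from naive, and -0.20 to 1.96 (Tgfb1), -0.56 to 0.0137 (Tgfbr1), -0.10 to 0.297 (Tgfbr2) and -1.84 to 0.17 (Smad2) from contralateral. The cause was not tested.

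None of the 9 genes was called against sham, naive or contralateral under any alternative. With DESeq2's Wald test 2 were called for microbead against the mean of sham and naive, 1 for contralateral against sham, 2 for contralateral against naive and 1 for microbead and contralateral together against sham and naive. With the compared groups alone 1 was called against the mean of sham and naive, and without contralateral library 3 1 was called for both eyes together.

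Counts over all genes depended strongly on the tool and the libraries. They are given in the order microbead against sham, naive, contralateral and the mean of sham and naive, where edgeR called 2, 30, 4 and 183. DESeq2's Wald test called 463, 576, 664 and 805, and fits without a filter 139, 162, 157 and 359. Limma voom called 91, 194 and 2 in the first 3. With the replicate block, whose numbers stand for no stated animal, the counts were 0, 1, 0 and 70. With the length trend removed they were 0, 1, 0 and 2. Without the libraries under 12000 genes they were 7, 9 and 60 against sham, contralateral and the mean. With the compared groups alone they were 0, 5, 0 and 315. DESeq2's size factors gave 46 against naive, and at least 50 reads in 3 libraries gave 0 against sham and 2 against contralateral. Leaving out 1 library gave 0 to 134, 0 to 168, 0 to 162 and 27 to 285. For contralateral against sham, contralateral against naive and sham against naive, where edgeR called 0, DESeq2's Wald test called 72, 71 and 28 and fits without a filter 22, 21 and 14. Leaving out 1 library, contralateral library 3, gave 21 and 11 for the first pair. For both eyes together edgeR called 0, DESeq2 239, no filter 68, limma voom 4, and leaving out 1 library 1 to 89. The joint test of the 4 groups was not rerun.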
